A study of Homo sapiens with 8 samples.

Results

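The epidermal growth factor receptor (EGFR), its ligands and the inhibitors that its signal switches on were examined in A172 cells, an established human glioblastoma line. The 10 listed genes were EREG, AREG, HBEGF, BTC, NRG1, EGFR, ERRFI1, SPRY2, SPRY4 and DUSP6. A gene was measured where an array feature, called a transcript cluster, had its symbol as the only one in the platform annotation. This held for 9 of the 10 genes, each with 1 cluster, among 16098 clusters with a single symbol and 53617 in all. AREG, the ligand amphiregulin, had no such cluster and was not analysed here. EREG was chosen by its strong change in these same arrays, so its values are a description and carry no test. The other 8 measured genes were listed as its pathway partners with earlier results of these data known, so their counts are set beside those of all clusters and are not independent support.

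RNA was hybridised to Affymetrix Human Gene 2.0 ST arrays, and the values are RMA log2 signals, in which a difference of 1 is 2-fold. A viral vector gave the cells 1 of 2 constructs that doxycycline switches on, an shRNA that targets HDAC2, a class I histone deacetylase (shHDAC2), or a control shRNA (shControl). The 4 groups of 2 arrays each were shHDAC2 DOX(+), shHDAC2 DOX(-), shControl DOX(+) and shControl DOX(-), where DOX(+) cells received doxycycline for 2 days before harvest and DOX(-) cells received none. For the shHDAC2 DOX(-) and shControl DOX(+) samples, 1 label field names the other construct, and groups follow the titles and the treatment field. The replicates are called biological in the labels, but separate cultures are not described, and the sample labels do not say whether the infected cells were pools or clones.

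EGFR is a receptor tyrosine kinase whose gain is among the best known drivers of glioblastoma. Its ligands, among them epiregulin (EREG), heparin-binding EGF-like growth factor (HBEGF) and betacellulin (BTC), are made as membrane-bound precursors that proteases release, and the bound receptor signals through RAS and the kinases MEK and ERK. Signalling also raises the transcription of its own inhibitors. ERRFI1 (MIG6) binds and blocks the receptor kinase, the Sprouty proteins SPRY2 and SPRY4 restrain the RAS branch, and the phosphatase DUSP6 inactivates ERK.

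HDAC2 itself was measured at 4.95 and 5.34 (log2 signal) in shHDAC2 DOX(+) arrays, 5.69 and 5.80 in shHDAC2 DOX(-) arrays, 6.14 and 6.15 in shControl DOX(+) arrays, and 6.42 and 6.30 in shControl DOX(-) arrays. It was lowest in shHDAC2 DOX(+) cells (log2 difference from shHDAC2 DOX(-) -0.60, adjusted p = 0.0115 from limma, and 0.0616 without shHDAC2 DOX(-) replicate 2 or 0.0724 without shHDAC2 DOX(+) replicate 1). Without doxycycline it was already below shControl (-0.61, adjusted p = 0.0101, and 0.0674 without shControl DOX(-) replicate 1 or 0.0575 without shHDAC2 DOX(-) replicate 1). HDAC2 was also below shControl with doxycycline in both (-0.999, 95% interval -1.32 to -0.68, adjusted p = 0.00858 from limma). The HDAC2 responses to doxycycline differed by -0.38 (adjusted p = 0.243), which was not called. A second HDAC2 cluster, with signals of 2.23 to 2.61, was not called in any of the 5 comparisons. Both shHDAC2 DOX(-) arrays, for which a label field names the other construct, were unlike the rest. Their Pearson correlations with the other 6 arrays across the 16098 clusters were 0.9319 to 0.9371, against 0.985 to 0.9942 among those 6. Some markers moved with them. The epithelial keratin KRT18 had 6.28 and 6.24 there against 9.97 to 10.70 on the other arrays, the glioma and stem cell filament NES had 5.42 and 5.77 against 7.37 to 7.90, and the macrophage marker CD68 had 10.82 and 10.84 against 7.77 to 8.40. Of 5 measured markers of other cell types, EPCAM, PECAM1 and SYP were not called between the constructs without doxycycline. Of 7 glioma and mesenchymal markers 5 were not called in that comparison, CD44 (0.24), SOX2 (-0.33) and the glial GFAP, S100B and OLIG2. The means of GFAP, S100B and OLIG2 over the 8 arrays were 4.71, 2.96 and 4.20. The mesenchymal filament VIM ran opposite to NES, with 10.27 and 10.34 in shHDAC2 DOX(-) arrays against 9.34 to 9.77 on the others. The comparisons of doxycycline in shHDAC2 cells and of the constructs without doxycycline rest on the arrays that stood apart, and the part of the marker shift in the results was not tested. On these bulk arrays, fewer cells of a type and less RNA per cell cannot be told apart.

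EREG encodes epiregulin, a ligand of EGFR and ERBB4. Its log2 signals were 2.94 and 2.84 in shHDAC2 DOX(+) arrays and 8.25 and 8.49 in shHDAC2 DOX(-) arrays. They were 3.09 and 2.65 in shControl DOX(+) arrays and 2.71 and 2.98 in shControl DOX(-) arrays. EREG was therefore high on the shHDAC2 DOX(-) arrays only, and the other 6 arrays overlapped across groups. The log2 difference of shHDAC2 DOX(+) minus shHDAC2 DOX(-) was -5.49, a 44.8-fold lower signal, and that of shHDAC2 DOX(-) minus shControl DOX(-) was 5.53. With doxycycline in both, shHDAC2 minus shControl was 0.02. Among the 16098 clusters EREG had the 5th largest fall upon doxycycline in shHDAC2 cells and the 5th largest rise in shHDAC2 over shControl cells without doxycycline. Signals near 3 lie below the median of all values in the table, 3.66, so the size of these differences is uncertain at the low end.

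The bases just before the annotated start of EREG are shown because EREG had the largest difference of the 9 measured genes. RefSeq (GRCh38.p14) places them at chr4:74364895-74365144 on the plus strand, 250 bases written 5′ to 3′, with motif matches in capitals.
EREG: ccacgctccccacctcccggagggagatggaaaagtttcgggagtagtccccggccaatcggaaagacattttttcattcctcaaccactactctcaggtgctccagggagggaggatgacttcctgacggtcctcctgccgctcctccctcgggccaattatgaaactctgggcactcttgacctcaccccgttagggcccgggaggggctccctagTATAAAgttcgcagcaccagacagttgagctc
Both strands were searched for the AP-1 motif TGANTCA, the cAMP response element TGACGTCA, the ETS core CCGGAA, the CArG box bound by serum response factor, and the TATA box TATAAA. The EREG window held 1 match, TATAAA with its first base at position -32 from the start. A TATAAA match occurred in 10.7% of the 35116 RefSeq promoter windows of the same length, TGANTCA in 6.57%, TGACGTCA in 1.65%, CCGGAA in 14.5% and the CArG box in 1.16%. A match is a run of letters and was not tested as a binding site.

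EREG lies in a row of ERBB ligand genes on chromosome 4, in the RefSeq order EPGN, EREG, AREG and BTC, with the chemokine genes CXCL3 and CXCL2 on 1 side. Without doxycycline, the log2 difference of shHDAC2 minus shControl was 0.46 for EPGN (epigen) and 0.50 for BTC on either side of the 5.53 of EREG. It was 1.30 for CXCL3 and 1.22 for CXCL2, neutrophil-attracting chemokines, 0.21 for the folate enzyme gene MTHFD2L and 0.54 for PARM1. The shHDAC2 DOX(-) mean was thus the higher one for EREG and its 6 measured neighbours, as it was for 52.9% of all clusters. The shControl DOX(-) means of EPGN, BTC, CXCL3 and PARM1 lie below the table median, so the sizes of their differences are uncertain. EREG exceeded its neighbours by more than 4 log2 units. On doxycycline the 7 differences lay between -0.16 and 0.15. AREG and RCHY1 in the same row were not analysed here.

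The genes whose profile over the 8 arrays was most like that of EREG were GREM1, C1orf94 and UGT8, out of 11069 candidate clusters with a mean signal at or above the table median. Likeness was the root mean square difference of log2 signals after each gene's shControl DOX(-) mean was subtracted, 0.25 for GREM1, 0.33 for C1orf94 and 0.39 for UGT8. GREM1, a secreted inhibitor of bone morphogenetic proteins, had 4.46 and 4.41 in shHDAC2 DOX(+) arrays, 9.86 and 10.01 in shHDAC2 DOX(-) arrays, 4.76 and 4.55 in shControl DOX(+) arrays, and 4.78 and 4.64 in shControl DOX(-) arrays. UGT8, the enzyme that makes the galactolipid of myelin, had 7.32 and 7.38 in shHDAC2 DOX(-) arrays and 2.22 to 2.85 on the other 6. The likeness is a description with no test, since it is measured against the values for which EREG was chosen, and it rests on the shHDAC2 DOX(-) arrays. C1orf94 (3.05 to 3.43) and UGT8 lay below the table median on the other 6 arrays and were candidates only through the shHDAC2 DOX(-) arrays.

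**Figure D1:**
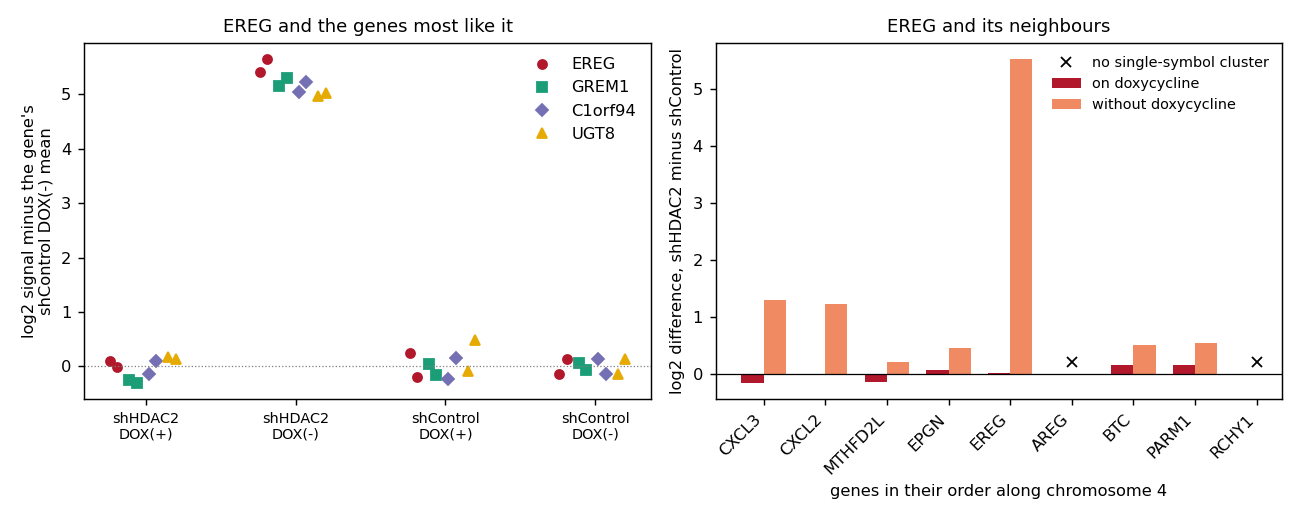
Left, log2 signal minus the gene's own shControl DOX(-) mean for EREG and the 3 genes most like it (each point is 1 array, 2 per group), with only the shHDAC2 DOX(-) arrays far from 0. Right, the log2 difference of shHDAC2 minus shControl (bars, difference of 2-array means) on and without doxycycline for the genes around EREG, where EREG reached 5.53 without doxycycline and no other gene exceeded 1.30.

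Of the 8 genes tested, 7 were lower and 1, EGFR, was higher upon doxycycline in shHDAC2 cells at a limma adjusted p under 0.05, so 8 of 8 were called. Among all 16098 clusters 30.6% were called in this comparison, 15.6% lower and 15.0% higher. In a fit of clusters with a mean signal at or above the table median, 7 of 7 genes and 4898 of 11077 clusters were called. The median log2 difference of the 8 genes was -0.62, and that of all clusters was -0.01. In shControl cells limma called 0 of the 8 genes and 0% of all clusters upon doxycycline, with 2 of the 8 genes and 868 clusters at an unadjusted p under 0.05, and the methods' t-test also called 0.

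**Figure D2:**
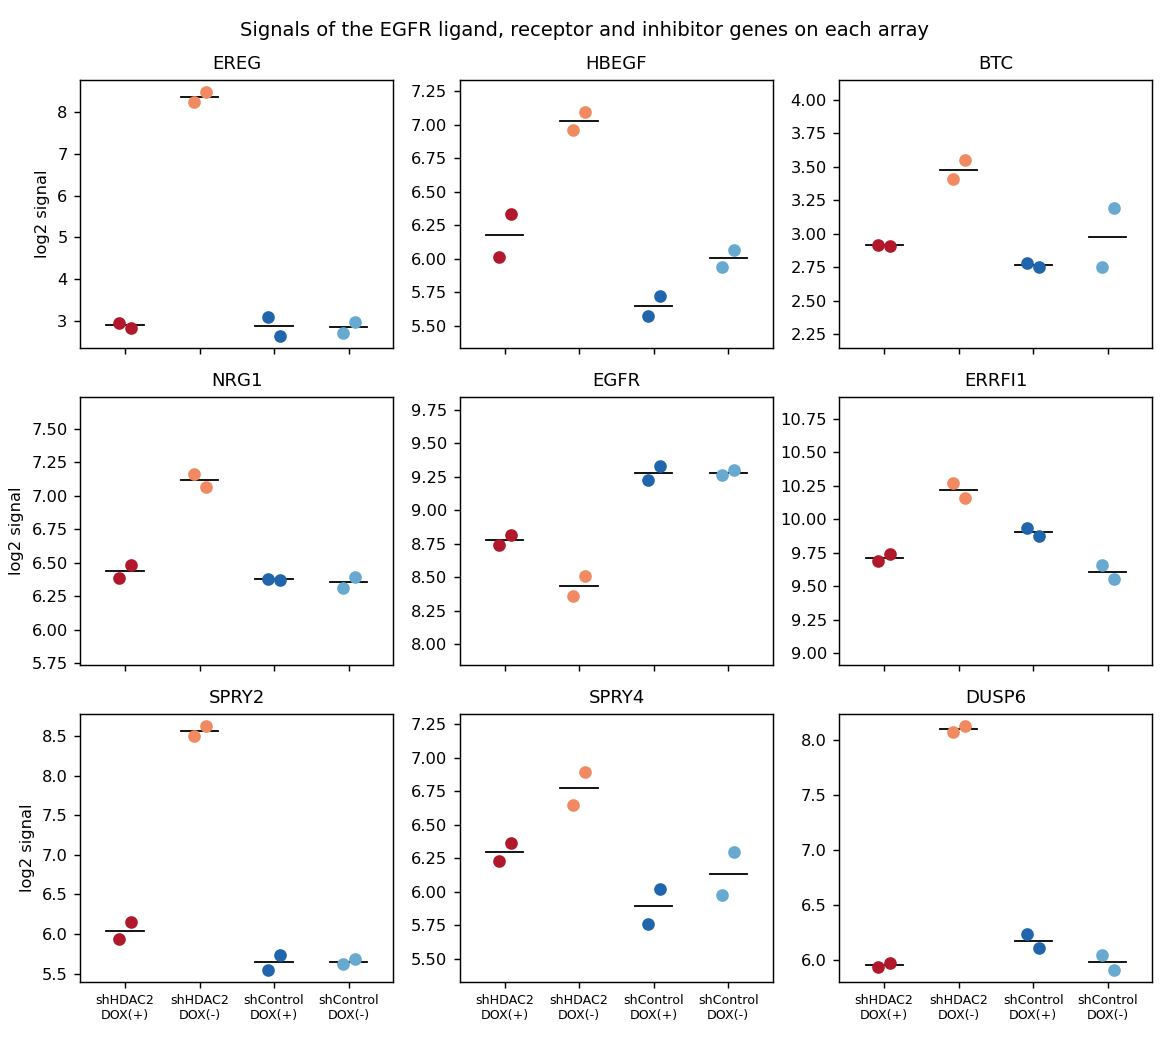
Log2 signal (vertical axes, each gene on its own scale) of the 9 measured genes in the 4 groups, with 1 point per array and a line at the mean of 2 arrays. EREG, SPRY2 and DUSP6 were above 8 on both shHDAC2 DOX(-) arrays and lower on the other 6, and EGFR was lower on all 4 shHDAC2 arrays than on the 4 shControl arrays.

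HBEGF, an EGFR and ERBB4 ligand that astrocytes and tumour cells can make, had 6.01 and 6.34 in shHDAC2 DOX(+) arrays and 6.96 and 7.10 in shHDAC2 DOX(-) arrays. It had 5.58 and 5.72 in shControl DOX(+) arrays and 5.94 and 6.07 in shControl DOX(-) arrays. Both shHDAC2 DOX(-) arrays lay above all others. HBEGF fell by 0.85 on the log2 scale upon doxycycline in shHDAC2 cells (95% interval -1.17 to -0.54, adjusted p = 0.00147 from limma). In shControl cells the log2 difference was -0.35 (adjusted p = 0.852), and the difference between the responses was -0.50 (interval -0.95 to -0.06, adjusted p = 0.116). On doxycycline HBEGF was 0.53 above shControl (interval 0.21 to 0.84, adjusted p = 0.0795), which missed the threshold. That call was made with the replicate number as a block (adjusted p = 0.0423), with a filter on low signal (adjusted p = 0.0437) and with a variance trend (adjusted p = 0.0284).

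NRG1 encodes neuregulin, which binds ERBB3 and ERBB4 and not EGFR itself. Its signals were 6.38 and 6.48 in shHDAC2 DOX(+) arrays, 7.16 and 7.07 in shHDAC2 DOX(-) arrays, 6.38 and 6.37 in shControl DOX(+) arrays, and 6.31 and 6.39 in shControl DOX(-) arrays. The shHDAC2 DOX(-) arrays stood above the 6 others, which spanned 6.31 to 6.48. NRG1 fell by 0.68 upon doxycycline in shHDAC2 cells (interval -0.92 to -0.44, adjusted p = 0.00125 from limma), and its responses differed by -0.70 (adjusted p = 0.0116). On doxycycline it differed from shControl by 0.06 (interval -0.18 to 0.30, adjusted p = 0.835).

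BTC had signals of 2.92 and 2.91 in shHDAC2 DOX(+) arrays, 3.40 and 3.55 in shHDAC2 DOX(-) arrays, 2.78 and 2.75 in shControl DOX(+) arrays, and 2.75 and 3.19 in shControl DOX(-) arrays. All 8 signals lie below the table median, and the shControl DOX(-) arrays differed more from each other than from the shHDAC2 DOX(+) arrays. BTC fell by 0.56 upon doxycycline in shHDAC2 cells (adjusted p = 0.0188 from limma), a call that was not made without shHDAC2 DOX(-) replicate 2 (-0.49, adjusted p = 0.095), without shHDAC2 DOX(+) replicate 1 (-0.57, adjusted p = 0.0728) or without shHDAC2 DOX(+) replicate 2 (-0.56, adjusted p = 0.0768). The excess of shHDAC2 over shControl cells without doxycycline was 0.50 (adjusted p = 0.0314). It was 0.29 without shControl DOX(-) replicate 1 (adjusted p = 0.207), 0.58 without shHDAC2 DOX(-) replicate 1 (adjusted p = 0.058) and 0.43 without shHDAC2 DOX(-) replicate 2 (adjusted p = 0.138).

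EGFR, the receptor gene, had 8.74 and 8.81 in shHDAC2 DOX(+) arrays and 8.36 and 8.51 in shHDAC2 DOX(-) arrays, against 9.22 and 9.33 in shControl DOX(+) arrays and 9.27 and 9.30 in shControl DOX(-) arrays. All 4 shHDAC2 arrays lay below all 4 shControl arrays, and the shHDAC2 groups did not overlap. Without doxycycline EGFR was lower in shHDAC2 cells than in shControl cells (log2 difference -0.84, interval -1.10 to -0.59, adjusted p = 0.00046 from limma), a call kept without each array in turn. On doxycycline the log2 difference was -0.50 (interval -0.76 to -0.25, adjusted p = 0.0457). This call was lost without any 1 of the 8 arrays (adjusted p = 0.0538 to 0.238), and without both shHDAC2 DOX(-) arrays (adjusted p = 0.0538). The rise upon doxycycline in shHDAC2 cells, 0.34 (adjusted p = 0.0479), was likewise lost without any 1 array (adjusted p = 0.0597 to 0.215). The difference between the EGFR responses was 0.34 (interval -0.02 to 0.70, adjusted p = 0.181).

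SPRY2 and DUSP6 had the largest differences of the 8 genes tested. SPRY2 had 5.93 and 6.15 in shHDAC2 DOX(+) arrays and 8.50 and 8.63 in shHDAC2 DOX(-) arrays, against 5.55 and 5.74 in shControl DOX(+) arrays and 5.62 and 5.68 in shControl DOX(-) arrays. SPRY2 thus stood more than 2 log2 units higher on the shHDAC2 DOX(-) arrays than on any other. It fell by 2.52 upon doxycycline in shHDAC2 cells, or 5.75-fold (interval -2.81 to -2.24, adjusted p = 1.13e-06 from limma). Its log2 difference in shControl cells was -0.01 (interval -0.29 to 0.28), and the responses differed by -2.52 (adjusted p = 2.15e-05). On doxycycline both shHDAC2 arrays remained above both shControl arrays, by 0.40 (interval 0.11 to 0.68), and the adjusted p of 0.138 missed the threshold.

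DUSP6, the ERK phosphatase often read as a measure of ERK activity, had 5.93 and 5.97 in shHDAC2 DOX(+) arrays and 8.07 and 8.13 in shHDAC2 DOX(-) arrays. It had 6.23 and 6.11 in shControl DOX(+) arrays and 6.05 and 5.91 in shControl DOX(-) arrays. As with SPRY2, only the shHDAC2 DOX(-) arrays were high. DUSP6 fell by 2.15 upon doxycycline in shHDAC2 cells, or 4.45-fold (interval -2.40 to -1.90, adjusted p = 1.42e-06 from limma), and the responses differed by -2.34 (adjusted p = 1.6e-05). On doxycycline its difference from shControl was -0.22 (interval -0.47 to 0.03, adjusted p = 0.353), opposite in sign to that of SPRY2.

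The 250 bases before the SPRY2 and DUSP6 starts are shown because these inhibitors changed most with EREG. RefSeq (GRCh38.p14) places them at chr13:80341127-80341376 for the outermost of 3 SPRY2 starts and at chr12:89352502-89352751 for DUSP6, both on the minus strand, written 5′ to 3′ with motif matches in capitals.
SPRY2: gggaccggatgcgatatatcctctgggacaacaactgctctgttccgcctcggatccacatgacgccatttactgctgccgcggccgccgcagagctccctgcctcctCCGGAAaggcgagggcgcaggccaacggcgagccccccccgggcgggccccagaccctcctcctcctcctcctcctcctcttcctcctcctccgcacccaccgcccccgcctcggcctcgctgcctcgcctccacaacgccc
DUSP6: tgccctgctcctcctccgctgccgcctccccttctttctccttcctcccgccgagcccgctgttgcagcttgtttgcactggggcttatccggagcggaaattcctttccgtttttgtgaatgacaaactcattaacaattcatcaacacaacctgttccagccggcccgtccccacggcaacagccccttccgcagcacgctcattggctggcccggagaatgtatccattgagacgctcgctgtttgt
The SPRY2 window held 1 match, the ETS core CCGGAA with its first base at position -142, found at 1 of the 3 SPRY2 starts. The DUSP6 window held none of the 5 motifs, which says only that these letters are not in this window. The TATAAA of the EREG window was in neither, but was also found before the AREG start and 1 of 2 EGFR starts.

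ERRFI1 had 9.69 and 9.74 in shHDAC2 DOX(+) arrays and 10.27 and 10.16 in shHDAC2 DOX(-) arrays. It had 9.94 and 9.88 in shControl DOX(+) arrays and 9.66 and 9.56 in shControl DOX(-) arrays. Within each construct the groups did not overlap, and their order was opposite, with DOX(+) below DOX(-) in shHDAC2 cells and above it in shControl cells. ERRFI1 fell by 0.50 upon doxycycline in shHDAC2 cells (interval -0.75 to -0.25, adjusted p = 0.00705 from limma). Its difference in shControl cells was 0.30 (interval 0.06 to 0.55, adjusted p = 0.828), and the responses differed by -0.80 (adjusted p = 0.00629). With doxycycline in both, shHDAC2 minus shControl was -0.19 (interval -0.44 to 0.05, adjusted p = 0.405).

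SPRY4 had 6.23 and 6.36 in shHDAC2 DOX(+) arrays, 6.65 and 6.89 in shHDAC2 DOX(-) arrays, 5.76 and 6.02 in shControl DOX(+) arrays, and 5.98 and 6.30 in shControl DOX(-) arrays. Both shHDAC2 DOX(-) arrays were above all others, and the shHDAC2 DOX(+) and shControl DOX(-) arrays overlapped. Its fall upon doxycycline in shHDAC2 cells, -0.47 (interval -0.83 to -0.12, adjusted p = 0.0472 from limma), was lost without 1 of 5 arrays, namely shControl DOX(+) replicate 1 or 2 (adjusted p = 0.0518 each), shHDAC2 DOX(-) replicate 2 (-0.35, adjusted p = 0.222), shHDAC2 DOX(+) replicate 1 (-0.41, adjusted p = 0.192) and shHDAC2 DOX(+) replicate 2 (-0.54, adjusted p = 0.0911). The excess over shControl without doxycycline was 0.63 (adjusted p = 0.0133), and 0.47 without shControl DOX(-) replicate 1 (adjusted p = 0.101) and 0.51 without shHDAC2 DOX(-) replicate 2 (adjusted p = 0.0818). The difference between the responses was -0.23 (interval -0.73 to 0.27, adjusted p = 0.552), which leaves sizes up to those bounds possible.

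The difference between the doxycycline responses was called lower by limma for 4 of the 8 genes, SPRY2, DUSP6, ERRFI1 and NRG1, and for none in the higher direction. Among all clusters 19.6% were called in that comparison, 10.0% lower. In a fit of clusters with a mean signal at or above the table median, 4 of 7 genes and 3390 of 11077 clusters were called. The median over the 8 genes was -0.60 and over all clusters -0.01. These 4 calls were kept without each of the 8 arrays in turn. The comparison uses the same shHDAC2 arrays as the response in shHDAC2 cells, so its values are not separate support for it.

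Without doxycycline, shHDAC2 cells had 7 of the 8 genes higher than shControl cells and 1, EGFR, lower, where 30.0% of all clusters were called, 13.7% higher and 16.3% lower. The log2 differences of those 7 ranged over 0.50 for BTC, 0.61 for ERRFI1 (adjusted p = 0.00255 from limma), 0.63 for SPRY4, 0.76 for NRG1 (adjusted p = 0.000682), 1.03 for HBEGF (adjusted p = 0.000528), 2.12 for DUSP6 (adjusted p = 1.58e-06) and 2.92 for SPRY2 (adjusted p = 4.74e-07). Their median with EGFR included was 0.70, against 0.02 over all clusters. With doxycycline in both constructs, 1 of the 8 genes was called, EGFR lower, where 3.67% of all clusters were called and 2.89% were lower. The median of the 8 genes there was 0.11, against -0.01 over all clusters, and 4 of the 8 had an unadjusted p under 0.05, as did 17.8% of all clusters. Without both shHDAC2 DOX(-) arrays in the fit, 0 of the 8 were called there and 4 had an unadjusted p under 0.05, as did 2931 of the 16098 clusters.

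**Figure D3:**
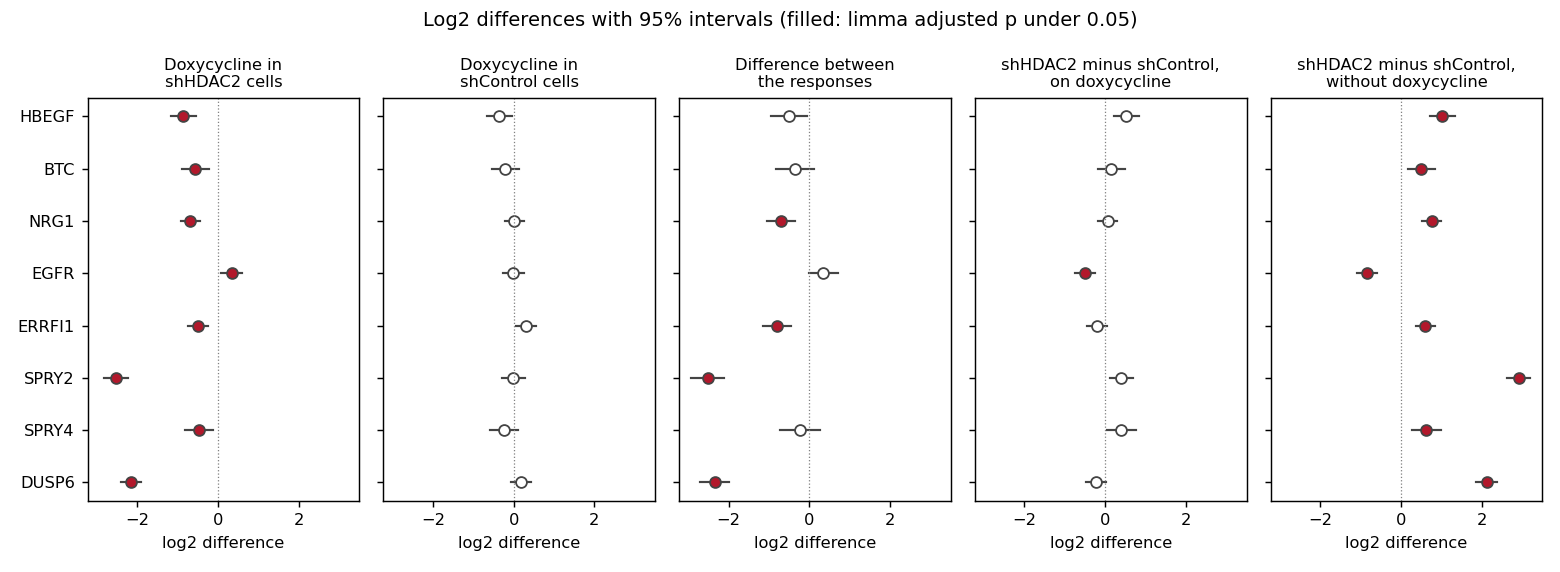
Log2 differences (points) with 95% intervals (bars) of the 8 genes tested in the 5 comparisons, filled where the limma adjusted p was under 0.05. The differences were large for SPRY2 and DUSP6 where the shHDAC2 DOX(-) arrays enter, and on doxycycline only EGFR (-0.50) was called.

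The rest of the pathway was read from 6 lists holding 56 genes, of which 40 were measured. Upon doxycycline in shHDAC2 cells 21 of the 40 were called by limma, 8 higher and 13 lower, or 52.5% where 30.6% of all clusters were called. The shares over all clusters include those of low signal, which were called less often. In a fit of the 11077 clusters with a mean signal at or above the table median, 4898 were called in this comparison. Whether the lists exceed clusters of like signal was not tested. Without doxycycline 22 of the 40 differed between the constructs, 11 higher and 11 lower in shHDAC2 cells, or 55.0% against 30.0% of all clusters. On doxycycline 5 were called, 1 higher and 4 lower, or 12.5% against 3.67% of all clusters. Of these calls, 13 of 21, 14 of 22 and 0 of 5 were made without each of the 8 arrays in turn. Genes named here had their call in every such fit unless stated.

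Among 5 measured ligands outside the list of members, EGF, which gives the receptor its name, rose by 1.30 upon doxycycline in shHDAC2 cells (adjusted p = 0.00154 from limma), whereas EPGN (-0.43) and NRG2 (-0.59, a call its second cluster did not share) fell, both lost without shHDAC2 DOX(-) replicate 1 or shHDAC2 DOX(+) replicate 1 (adjusted p up to 0.18 for EPGN and 0.192 for NRG2). EGF signals were 5.19 and 5.00 in shHDAC2 DOX(+) arrays and 3.45 and 4.14 in shHDAC2 DOX(-) arrays, against 4.42 to 4.89 in shControl arrays. Every EPGN signal, 2.04 to 2.69, lay below the table median, so the size of its fall is uncertain. NRG3 and NRG4 were not called. The receptors ERBB3 and ERBB4 had signals of 3.05 to 3.52 and no call in any of the 5 comparisons. ADAM17, the main protease that releases HBEGF and epiregulin, without doxycycline was lower in shHDAC2 cells (log2 difference from shControl -1.08, adjusted p = 0.000101) and rose by 1.07 upon doxycycline in shHDAC2 cells. Its regulator RHBDF2 was lower in shHDAC2 cells both on doxycycline (-0.88, adjusted p = 0.00898 from limma) and without it (-0.62, adjusted p = 0.00548). The RHBDF2 call on doxycycline was lost without shControl DOX(+) replicate 2 or shHDAC2 DOX(+) replicate 1. Another listed regulator, RHBDF1, rose by 0.64 upon doxycycline in shHDAC2 cells (adjusted p = 0.00303). Without doxycycline RHBDF1 was below shControl (-0.45), a call not kept in every fit that left out an array. On doxycycline RHBDF1 (-0.05) and ADAM17 (-0.10) were not called against shControl.

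In the cascade list, 10 of 16 genes were measured. MAP2K1, which encodes the ERK kinase MEK1, fell by 0.84 upon doxycycline in shHDAC2 cells (adjusted p = 0.000365 from limma), and the adaptor SHC1 rose by 1.01 (adjusted p = 0.000147). Without doxycycline the log2 difference of shHDAC2 minus shControl was 1.07 for MAP2K1 and -0.94 for SHC1. With doxycycline in both it was 0.33 for MAP2K1 and 0.12 for SHC1. On doxycycline 0 of the 10 were called.

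Of 16 further feedback inhibitors, 9 were measured. Upon doxycycline in shHDAC2 cells 3 rose, 4 fell and 2 were not called, where 15.0% of all clusters were higher and 15.6% lower. The calls of DUSP4, DUSP5, DUSP7 and LRIG3 were not made in every fit that left out an array. The fall of DUSP5 was a call that its second cluster did not share. LRIG1, which promotes degradation of EGFR, fell by 1.25 (adjusted p = 6.73e-05 from limma) and SOCS4, a suppressor of cytokine signalling, fell by 1.21 (adjusted p = 3.42e-05). NF1, the RAS GTPase activator lost in part of glioblastomas, rose by 1.01 (adjusted p = 0.000154). On doxycycline the ERK phosphatase DUSP5 was 0.72 higher in shHDAC2 than in shControl cells, and LRIG1 (-0.68) and LRIG3 (-0.72) were lower, each lost in at least 3 of the 8 fits that left out an array (adjusted p up to 0.186 for DUSP5, 0.141 for LRIG1 and 0.202 for LRIG3).

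Of 10 measured genes that ERK signalling is known to raise, 1 rose and 4 fell upon doxycycline in shHDAC2 cells, where 15.0% of all clusters were higher and 15.6% lower. The transcription factors ETV1 (-1.38) and FOSL1 (-1.33) and the early response gene IER3 (-1.31) fell with SPRY2 and DUSP6, as did MYC (-0.63). In shControl cells the FOSL1 difference was -0.59 (interval -0.91 to -0.26, adjusted p = 0.683 from limma), against -0.01 for SPRY2 and 0.19 for DUSP6. EPHA4, an ephrin receptor, rose by 1.86. ETV4 (0.02), ETV5 (-0.03), CCND1 (-0.20) and EPHA2 (-0.02) were not called. Without doxycycline ETV1 (1.66), FOSL1 (1.37), IER3 (1.06) and MYC (0.51, lost without shControl DOX(-) replicate 2 or shHDAC2 DOX(-) replicate 1) were higher in shHDAC2 than in shControl cells. EGR1, an immediate early ERK target, was lower (-0.82, adjusted p = 0.00261 from limma, a call its second cluster did not share). The shControl DOX(-) arrays were the high ones for EGR1, at 9.36 and 9.64. It had 8.61 and 8.75 in shHDAC2 DOX(-), 8.22 and 8.49 in shHDAC2 DOX(+), and 8.69 and 8.85 in shControl DOX(+) arrays. Upon doxycycline in shControl cells EGR1 differed by -0.73 (interval -1.07 to -0.40, adjusted p = 0.595 from limma).

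**Figure D4:**
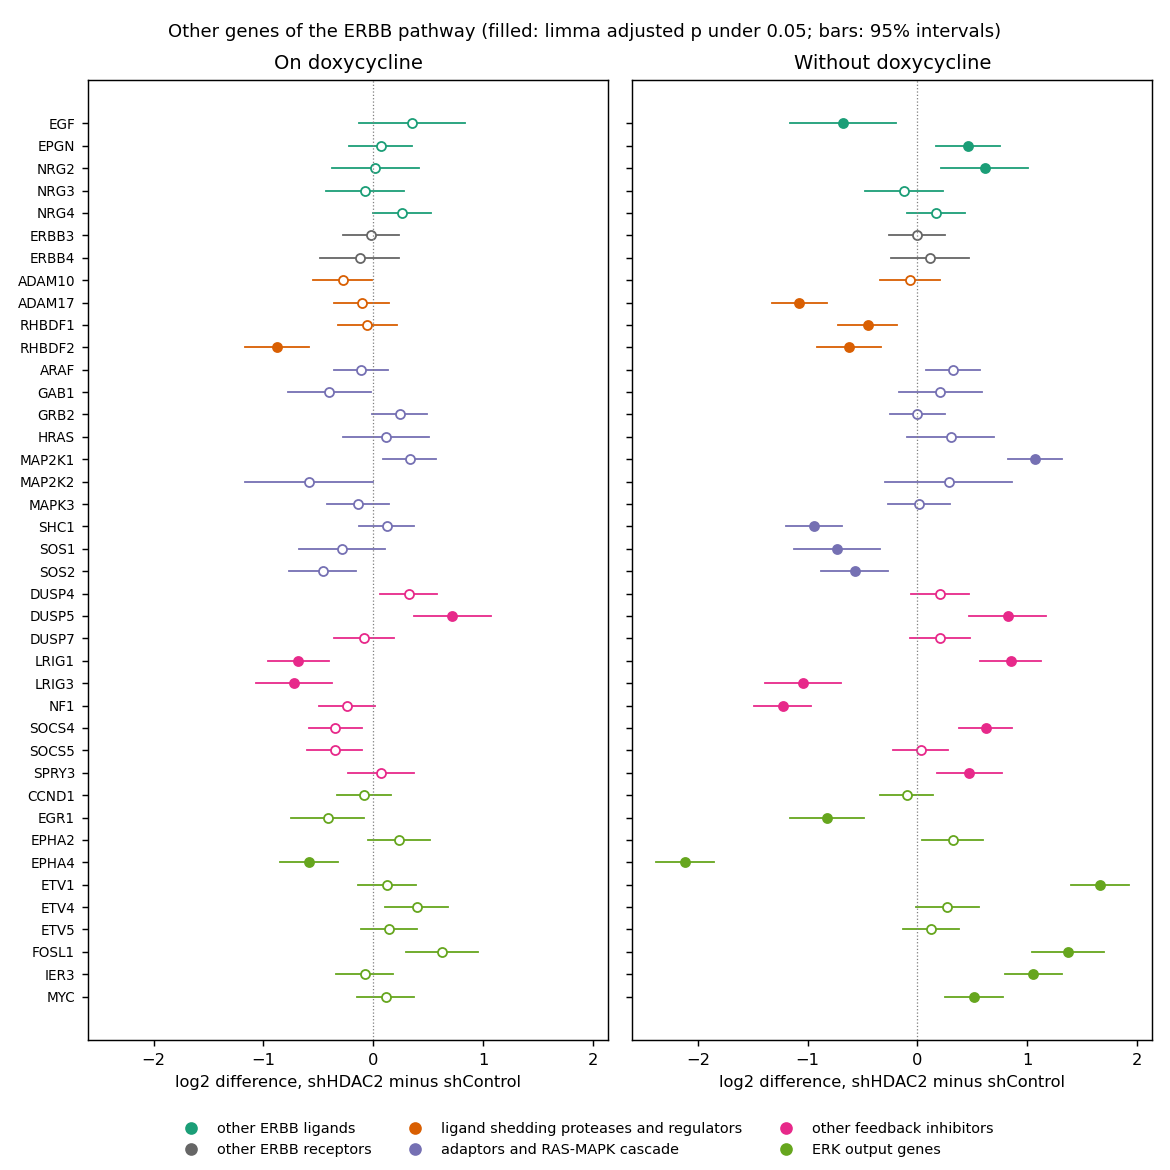
Log2 difference of shHDAC2 minus shControl (points) with 95% intervals (bars) for the 40 measured genes of 6 ERBB pathway lists, on doxycycline at left and without it at right, filled where the limma adjusted p was under 0.05. On doxycycline 5 genes were called, and without it 22 were called in both directions, EPHA4 being the lowest (-2.12) and ETV1 the highest (1.66).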

How the data were processed

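Total RNA of A172 cells (8 arrays, 4 groups of 2) was hybridised to Affymetrix arrays. The log2 signals deposited by the authors come from RMA, run in Affymetrix Expression Console, and were used unchanged. For these tools a version is not given in the sources used here, nor is a genome build, and array coordinates are not printed. RMA aligns the arrays' distributions, so a shift of most transcripts would not be seen.

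The 53617 transcript clusters included 16098 with exactly 1 symbol (14884 symbols) in a platform annotation that can be old, and 403 of them share all 8 values with another cluster. Limma 3.58.1 in R 4.3.3 was fitted to all 8 arrays with 1 mean per group, 4 residual and 4.83 prior degrees of freedom, Benjamini-Hochberg adjustment over the 16098 clusters and a 2-sided threshold of 0.05. The number of arrays limits the precision. Only the limma fit was tested on simulated data. There far fewer clusters changed than were called here, and only in the shHDAC2 DOX(+) group.

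The genes and lists were chosen with earlier results of these data known. Named genes were the 10 listed genes, HDAC2, up to 4 called genes of each pathway list by size, and the 3 clusters most like EREG. Other list genes, the markers and the neighbours of EREG were named after their values were seen. Where a list gene had several clusters, that of highest mean signal was used. Promoter windows came from RefSeq tables (GRCh38.p14). The alternatives were the replicate block, each array left out, only the arrays compared, a signal filter, every row, 1 cluster per gene, 2 rescalings, a variance trend, the methods' t-test and, added after seeing the data, leaving out both shHDAC2 DOX(-) arrays.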

Additional observations from a re-analysis of the deposited data

Results flagged for a closer look

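The doxycycline responses of shHDAC2 and shControl cells differed by limma's test of the difference itself for 4 genes. The log2 difference between the responses was -2.52 for SPRY2 (adjusted p = 2.15e-05), -2.34 for DUSP6 (adjusted p = 1.6e-05), -0.80 for ERRFI1 (adjusted p = 0.00629) and -0.70 for NRG1 (adjusted p = 0.0116). Each value uses the shHDAC2 DOX(-) arrays, which stood apart from the other 6. The ERRFI1 value also holds a difference of 0.30 in shControl cells, which limma did not call (adjusted p = 0.828).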

How the results depend on the processing

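Of 532 repeats of 32 gene differences, 470 kept their direction and side of the threshold, 58 lost the call, 4 gained it and 0 changed direction. Of the 8 genes, 8 were called upon doxycycline in shHDAC2 cells, 5 over every row of the table and 5 to 7 without 1 array. The methods' t-test called 1 there, 0 without doxycycline and 0 on doxycycline. Without doxycycline, 6 to 8 were called without 1 array. On doxycycline the 1 call became 2 with the signal filter, the variance trend or the replicate block, and 0 over every row, with only the arrays compared, with a second quantile normalization, without both shHDAC2 DOX(-) arrays or without any 1 array. For the difference between the responses, 4 were called without any 1 array.

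Over all clusters, every row of the table gave 7828 calls upon doxycycline in shHDAC2 cells (main 4931), 7636 without doxycycline (main 4831) and 204 on doxycycline (main 590), and the methods' t-test gave 243, 182 and 0. On doxycycline the count was 931 with the signal filter, 343 with only the arrays compared and 1159 with the variance trend, which called 1 cluster in shControl cells. Without 1 array the counts were 3844 to 4709 in shHDAC2 cells, 3518 to 4735 without doxycycline, 97 to 543 on doxycycline and 2290 to 2715 for the difference between the responses. The drop on doxycycline was largest without shHDAC2 DOX(+) replicate 1.

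Replicate numbers were not taken to pair the arrays, since deviations of same-numbered arrays correlated at 0.007 to 0.214, all above 0 and not all over 0.1. With the replicate block, 8 of the 8 genes were called in shHDAC2 cells, 8 without doxycycline, 2 on doxycycline and 4 for the difference between the responses, and 5175, 5079, 624 and 3340 clusters.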
